A study of Mus musculus with 3 samples.

Results

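The genes described here are those of the bone morphogenetic protein (BMP) and transforming growth factor beta (TGF-beta) superfamily, measured at postnatal day 13 in neocortex from mice of the outbred CD1 stock. Members were chosen by gene symbol alone: the BMP and growth differentiation factor (GDF) ligands, the TGF-betas, the inhibin and activin chains, Nodal and myostatin, their receptors, the Smad proteins, and the secreted antagonists Nog, Chrd, Fst and Grem1. The rule found 49 probe sets for 49 genes, of 23172 probe sets and 14806 singly named genes in all. Total RNA came from 3 wild-type animals, all of the same stock, region and age, with 1 array per animal. The labels name no other genotype, treatment or age, so levels and their variation among animals can be described, but no conditions can be contrasted. Bmp6, Gdf1, Gdf11, Gdf15, Inhbb and Acvr1c had no probe set naming them alone and were not analysed here.

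Ligands of this superfamily are secreted dimers that bring together type I and type II serine/threonine kinase receptors. The type II receptor phosphorylates the type I receptor, which phosphorylates receptor Smads. These join Smad4 and enter the nucleus to regulate transcription, while Smad6 and Smad7 inhibit the pathway and antagonists such as noggin bind ligands outside the cell. In the brain the pathway is known for its roles in dorsal patterning, in the differentiation of astrocytes and in blood vessels, and several BMPs are known from the meninges and choroid plexus.

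All levels are log2 of the deposited intensity, with the SD over mice (n = 3). As background limit, each array's 95th percentile over 809 chemosensory receptor probe sets was taken (olfactory, vomeronasal and trace amine), genes known mainly from sensory epithelia. It lay at 6.93 in mouse 1, 6.79 in mouse 2 and 6.77 in mouse 3. A gene was called above the limit if it exceeded it on all 3 arrays. Since probes differ in how brightly they bind, no gene's level is ranked against another's. In bulk RNA, fewer cells of a type and less RNA per cell cannot be told apart. Precision is limited by having only 3 arrays, and the labels do not say more of how the animals are related. The tissue label was set against markers. All 7 neuronal, 4 astrocyte, 4 myelin and 6 endothelial markers measured were above the limit, and none of 3 liver markers was. All 10 meningeal and fibroblast markers and 5 of 6 choroid plexus markers were above it too. So were 3 of 4 testis and 2 of 3 muscle markers, so a place above the limit is no proof that neocortical cells express a gene. The testis marker Prm1 lay 2.16 above the limit and the muscle marker Acta1 3.02, so a larger distance is no proof either. Prm2, Tnp2 and Ckm lay closer, at 0.67, 0.65 and 0.41 above it.

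On all 3 arrays 36 of the 49 members (73.5%) exceeded the limit, close to the 74.0% of all singly named genes. These genes include the receptors that set the limit, of which 27 of 809 probe sets exceeded it on every array. Shares of all genes above the limit are lowered by the receptors, and those below it raised. The family was not set against the other genes alone. The members were not spread evenly over the roles. All 10 type I and type II receptors, all 8 Smads, the co-receptor Tgfbr3 and the protease Bmp1 were above it. Of the 25 ligand genes 13 were, made up of 8 of 18 BMP, GDF and related ligands and 5 of 7 TGF-beta, activin and inhibin chains, and 3 of 4 antagonists were. The difference between roles was not tested. The distance of each gene from the limit was also tested against the spread between the mice, with limma over all 23172 probe sets and Benjamini-Hochberg adjustment. At an adjusted p under 0.05 it called 36 members above the limit and 9 below it, against 72.6% and 18.1% of all singly named genes, and left 4 that could not be told apart from it. The 36 were the genes above the limit on every array.

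**Figure D1:**
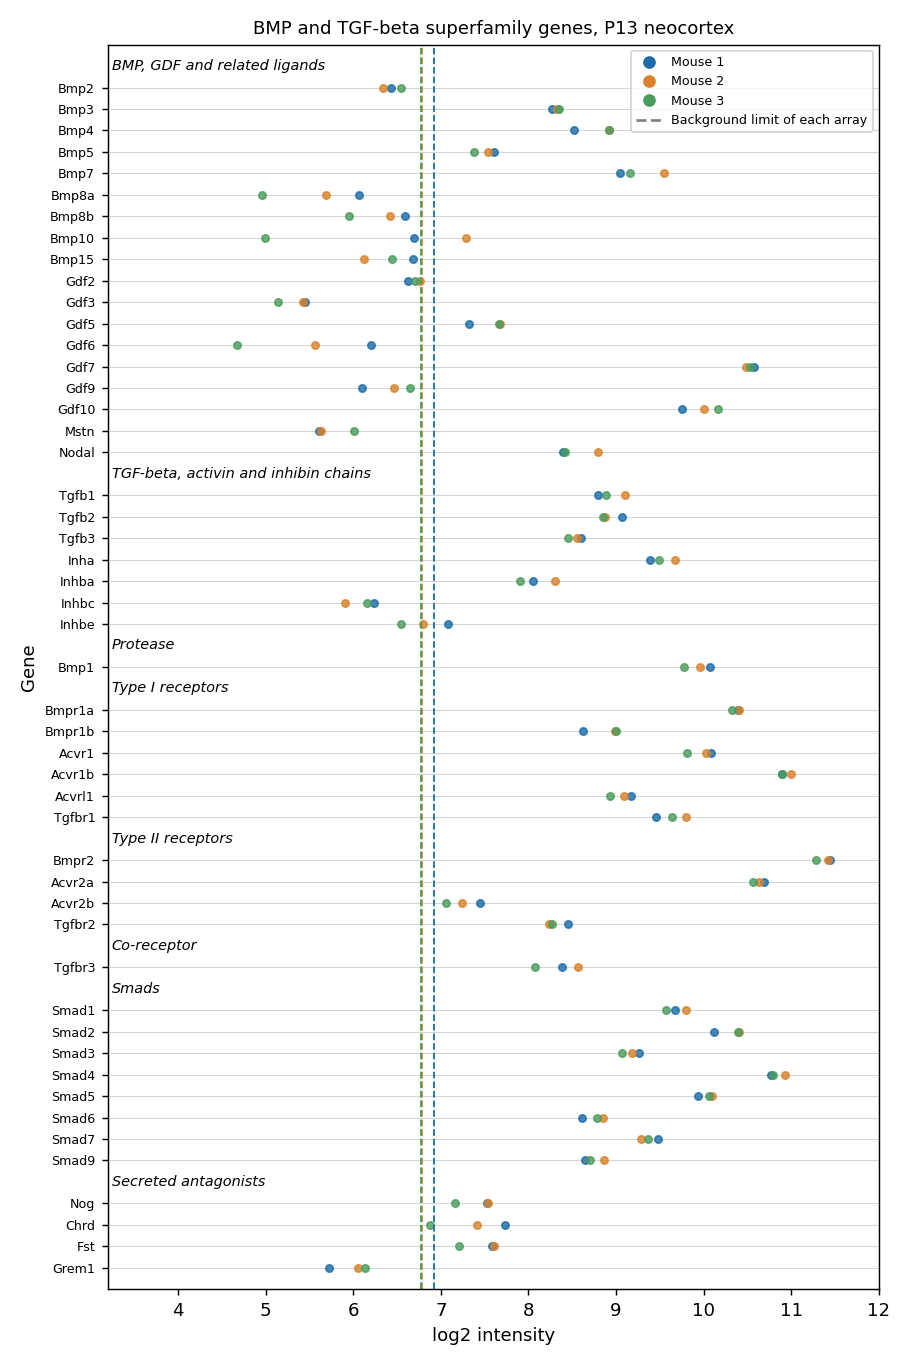
Log2 intensity (x axis) of each of the 49 family genes (rows, grouped by role) in mice 1, 2 and 3 (points), with the background limit of each array as a dashed line. All receptors and Smads lie to the right of the limits, while the ligands lie on both sides of them.

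Among the BMP and GDF ligands above the limit were members of several subgroups. Bmp4, a ligand of dorsal patterning and of glial fate, was at 8.52, 8.92 and 8.92 in mice 1 to 3 (8.79 ± 0.23). Bmp7, known from the meninges and choroid plexus, was at 9.05, 9.55 and 9.16 (9.25 ± 0.26), and Bmp5, of the same subgroup, at 7.60, 7.54 and 7.38 (7.51 ± 0.12). Bmp7 was highest and Bmp5 was intermediate in mouse 2, and Bmp4 was equal in mice 2 and 3 and lower in mouse 1. Bmp3, a ligand that opposes bone-forming BMPs, was at 8.26, 8.33 and 8.35 (8.31 ± 0.04). Gdf10, which is closely related to Bmp3, was at 9.75, 9.998 and 10.17 (9.97 ± 0.21). Bmp3 was nearly level across the mice, while Gdf10 differed by 1.34-fold between the lowest, mouse 1, and the highest, mouse 3. Gdf7, known from the roof plate of the spinal cord, was at 10.57, 10.48 and 10.53 (10.53 ± 0.04), one of the tighter members. Gdf5, a joint-forming ligand, lay close to the limit at 7.32, 7.67 and 7.67 (7.55 ± 0.20). Nodal, the ligand of mesoderm and left-right patterning in the embryo, was at 8.39, 8.80 and 8.42 (8.54 ± 0.23), highest in mouse 2.

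The other 10 ligands of this kind were not above the limit on every array, and most are known from tissues other than cortex. Bmp2 was at 6.43, 6.34 and 6.55 (6.44 ± 0.10), below the limit in every mouse, but its distance of -0.39 only just passed the test (limma adjusted p = 0.04998) and did not pass on leaving out any mouse (0.0556 to 0.160). Gdf3, a ligand of the early embryo, was at 5.34 ± 0.17, Gdf6, of joints and eye, at 5.48 ± 0.77, and Mstn, which limits muscle growth, at 5.75 ± 0.22. These were 1.49, 1.34 and 1.08 below the limit, with limma adjusted p-values of 4.09e-05, 0.00038 and 0.000331. The oocyte ligand Bmp15 was at 6.42 ± 0.28 (distance -0.41, limma adjusted p = 0.0451), a call lost without mouse 2 (0.262), without mouse 3 (0.0656) and without robust fitting (0.0686). Gdf9, its partner in the oocyte, was at 6.41 ± 0.28 and could not be told apart from the limit (distance -0.42, limma adjusted p = 0.0517). Bmp8a and Bmp8b, paralogues on chromosome 4 known from germ cell development, were at 5.57 ± 0.56 and 6.32 ± 0.33. Both were below the limit, Bmp8b not past the test without mouse 3 (limma adjusted p = 0.143), but their sequences are so alike that probes may not separate them. Gdf2 and Bmp10, circulating ligands made mainly in liver and heart, could not be told apart from the limit. Gdf2 was at 6.63, 6.77 and 6.70 (6.70 ± 0.07, limma adjusted p = 0.463). Bmp10 was at 6.69, 7.29 and 4.998 (6.32 ± 1.19, limma adjusted p = 0.236), above the limit in mouse 2 and far below it in mouse 3.

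All 3 TGF-beta genes were above the limit. Tgfb1, the isoform best known from microglia and blood vessels, was at 8.79, 9.10 and 8.88 (8.92 ± 0.16). Tgfb2 was at 9.07, 8.88 and 8.85 (8.93 ± 0.12) and Tgfb3 at 8.60, 8.55 and 8.45 (8.53 ± 0.08). Tgfb1 was highest in mouse 2, and Tgfb2 and Tgfb3 were highest in mouse 1. Inhba, the chain that forms activin A, was at 8.05, 8.31 and 7.91 (8.09 ± 0.20). Inha, which pairs with a beta chain to form inhibin, an antagonist of activin, was at 9.39, 9.67 and 9.49 (9.52 ± 0.14). Both were highest in mouse 2. With the limit at the 99th percentile Inhba was no longer above it on every array, and its distance of 0.22 did not pass (limma adjusted p = 0.197). The chains known mainly from liver did not exceed the limit on every array. Inhbc was at 6.24, 5.91 and 6.16 (6.11 ± 0.17), below the limit by 0.72 with a limma adjusted p of 0.00267. Inhbe was at 7.08, 6.79 and 6.55 (6.81 ± 0.26), above the limit in mice 1 and 2 and below it in mouse 3, and could not be told apart from it (limma adjusted p = 0.903).

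**Figure D2:**
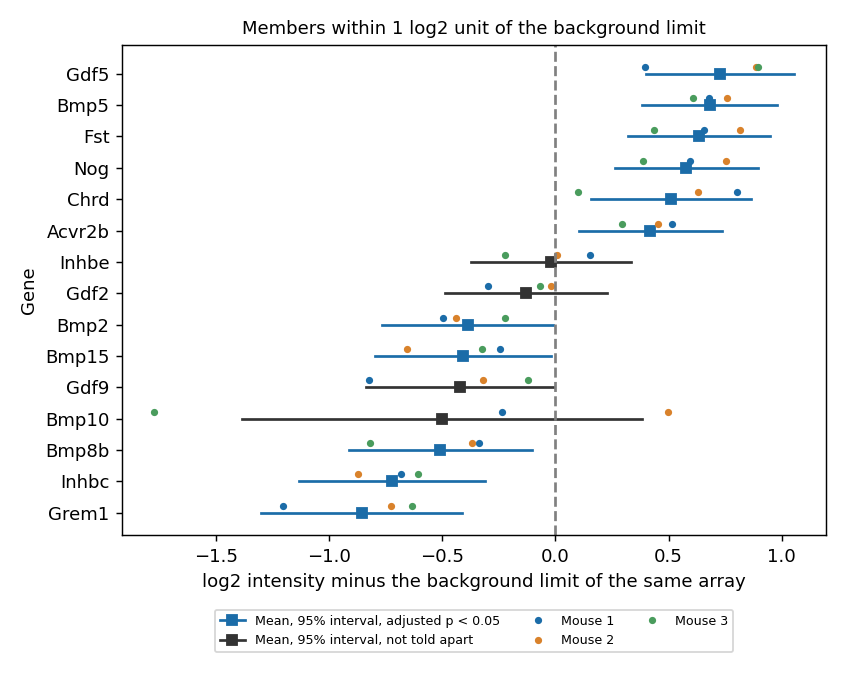
Log2 intensity minus the background limit of the same array (x axis) for the 15 members whose mean distance was under 1, with the mean and its 95% interval from limma (squares and bars) and each mouse (small points). Gdf5, Bmp5, Fst, Nog, Chrd and Acvr2b lie above 0 in all mice, and the bars of Inhbe, Gdf2 and Bmp10 span 0, while that of Gdf9 ends just below 0 before adjustment.

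All receptors measured were above the limit. Of the type I receptors, which set the Smad branch, the BMP receptor Bmpr1a was at 10.40, 10.40 and 10.33 (10.37 ± 0.04) and Acvr1, which also signals for BMPs, at 10.08, 10.03 and 9.81 (9.97 ± 0.15). Bmpr1b was at 8.63, 8.99 and 8.99 (8.87 ± 0.21), lower in mouse 1 than in the other animals. Acvr1b, the activin and Nodal receptor, was at 10.89, 10.99 and 10.89 (10.92 ± 0.06), and Tgfbr1 at 9.46, 9.79 and 9.64 (9.63 ± 0.17). Acvrl1, the endothelial receptor for Gdf2 and Bmp10, was at 9.17, 9.09 and 8.93 (9.06 ± 0.12), while these ligands could not be told apart from the limit.

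The type II receptors serve the BMP, activin and TGF-beta ligands. Bmpr2, the BMP type II receptor, was at 11.44, 11.41 and 11.28 (11.38 ± 0.09), and Acvr2a, an activin receptor shared with BMPs, at 10.69, 10.63 and 10.56 (10.63 ± 0.06). Tgfbr2, through which all TGF-betas signal, was at 8.46, 8.24 and 8.27 (8.32 ± 0.12). Acvr2b, the paralogue of Acvr2a, was at 7.44, 7.24 and 7.06 (7.25 ± 0.19), only 0.42 above the limit (limma adjusted p = 0.0153). It lost that call without mouse 1 (0.0513) and without mouse 2 (0.062). All 4 were highest in mouse 1. The co-receptor Tgfbr3, or betaglycan, which presents TGF-beta to its receptors, was at 8.38, 8.57 and 8.08 (8.34 ± 0.25).

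All 8 Smads were above the limit. The BMP-branch Smads were Smad1 at 9.67, 9.80 and 9.57 (9.68 ± 0.12), Smad5 at 9.94, 10.09 and 10.06 (10.03 ± 0.08) and Smad9 at 8.65, 8.87 and 8.70 (8.74 ± 0.11). The TGF-beta and activin branch was represented by Smad2 at 10.12, 10.40 and 10.39 (10.30 ± 0.16) and Smad3 at 9.26, 9.18 and 9.07 (9.17 ± 0.10). Smad4, the partner common to both, was at 10.76, 10.93 and 10.79 (10.83 ± 0.09). The differences between the mice were at most 1.22-fold in any of them. Of the inhibitory Smads, Smad6 was at 8.62, 8.85 and 8.79 (8.75 ± 0.12) and Smad7 at 9.48, 9.29 and 9.37 (9.38 ± 0.10), the former lowest and the latter highest in mouse 1.

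Of the secreted antagonists, 3 were above the limit by under 1 log2 unit and 1 was below it. Nog, or noggin, a BMP trap, was at 7.52, 7.54 and 7.16 (7.41 ± 0.21), 0.58 above the limit (limma adjusted p = 0.00203). Fst, or follistatin, which binds activin, was at 7.58, 7.60 and 7.21 (7.46 ± 0.22), 0.64 above it (limma adjusted p = 0.000972). Chrd, or chordin, which binds BMPs, was at 7.73, 7.42 and 6.87 (7.34 ± 0.43), 0.51 above it (limma adjusted p = 0.00987, or 0.0605 without mouse 1). In all of these mouse 3 was lowest. Grem1, or gremlin, a BMP antagonist of kidney, limb and bone, was at 5.72, 6.06 and 6.14 (5.97 ± 0.22), below the limit by 0.86 (limma adjusted p = 0.00143). Bmp1, in spite of its name a metalloprotease that cleaves procollagen and chordin, was at 10.07, 9.96 and 9.77 (9.93 ± 0.15).

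Sequences near the start of transcription were set beside these levels, since most widely used genes start in CpG-rich DNA. RefSeq (assembly GRCm38.p6) gave a promoter window, from 250 bases before to 50 after the start, for 33 of the 49 genes. A window was called CpG-rich if its observed over expected number of CG dinucleotides exceeded 0.6 and its G and C content 50%. Of all genes with a window, 66.1% of those above the limit and 15.6% of the others were CpG-rich. Receptor genes that set the limit were not taken out of these shares. The letters searched were CG, which read the same on both strands. The windows below show the contrast for Gdf10 and Gdf2, neighbours with no protein-coding gene between them, and for Acvr2a and Mstn, a receptor and a ligand of the activin type. They were chosen after their values were seen, are written 5′ to 3′ on the + strand, and carry each CG in capitals. They lie at chr14:33923337-33923636 for Gdf10, chr14:33940789-33941088 for Gdf2, chr2:48813859-48814158 for Acvr2a and chr1:53061390-53061689 for Mstn.
Gdf10 window: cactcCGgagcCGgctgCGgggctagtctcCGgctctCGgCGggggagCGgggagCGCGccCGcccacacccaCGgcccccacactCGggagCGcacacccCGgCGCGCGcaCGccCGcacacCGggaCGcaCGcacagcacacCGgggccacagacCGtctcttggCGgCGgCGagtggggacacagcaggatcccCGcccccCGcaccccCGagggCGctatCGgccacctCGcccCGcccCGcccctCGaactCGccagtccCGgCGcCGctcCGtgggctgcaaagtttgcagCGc
Gdf2 window: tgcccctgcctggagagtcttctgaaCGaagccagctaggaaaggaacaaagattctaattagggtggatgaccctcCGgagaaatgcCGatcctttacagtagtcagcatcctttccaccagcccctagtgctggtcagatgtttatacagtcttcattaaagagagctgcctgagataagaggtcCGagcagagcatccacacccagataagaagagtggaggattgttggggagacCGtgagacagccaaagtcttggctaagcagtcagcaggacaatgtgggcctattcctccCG
Acvr2a window: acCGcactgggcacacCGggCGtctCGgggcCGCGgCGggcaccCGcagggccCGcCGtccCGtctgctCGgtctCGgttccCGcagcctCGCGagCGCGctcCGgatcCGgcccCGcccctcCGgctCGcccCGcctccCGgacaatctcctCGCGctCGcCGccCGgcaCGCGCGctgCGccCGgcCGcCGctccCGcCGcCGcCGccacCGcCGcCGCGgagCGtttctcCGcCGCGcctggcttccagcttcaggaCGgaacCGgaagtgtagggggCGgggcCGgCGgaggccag
Mstn window: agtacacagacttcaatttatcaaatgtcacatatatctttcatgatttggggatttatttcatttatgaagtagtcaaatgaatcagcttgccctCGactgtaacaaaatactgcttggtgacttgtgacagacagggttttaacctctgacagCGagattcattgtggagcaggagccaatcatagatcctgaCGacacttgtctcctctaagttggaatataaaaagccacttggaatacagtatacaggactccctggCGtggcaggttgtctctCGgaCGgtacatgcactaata

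The Gdf10 window held 42 CG dinucleotides and that of Gdf2 held 6, while their levels were 9.97 ± 0.21 and 6.70 ± 0.07. The Gdf2 level could not be told apart from the limit. The Acvr2a window held 54 and the Mstn window 6, at levels of 10.63 ± 0.06 and 5.75 ± 0.22. Of the 24 members above the limit with a window 17 were CpG-rich, and of the 9 others 2 were, Bmp8b and Grem1. These shares of 70.8% and 22.2% lie near those of all genes. The counts by role are given as a description, and the difference between roles was not tested. All 5 Smads and 8 of 9 receptors with a window were CpG-rich, Bmpr1b being the exception with 5 CG dinucleotides. Of the ligands above the limit 3 of 9 were, namely Gdf10, Gdf7 and Tgfb1, beside the 66.1% of all genes above it. The windows of Bmp4, Bmp5, Nodal, Inha, Inhba and Tgfb2, ligands above the limit, held between 4 and 12 CG dinucleotides. Of the ligands not above it 1 of 8 was CpG-rich. Some genes have other starts, and only the first window listed was used.

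**Figure D3:**
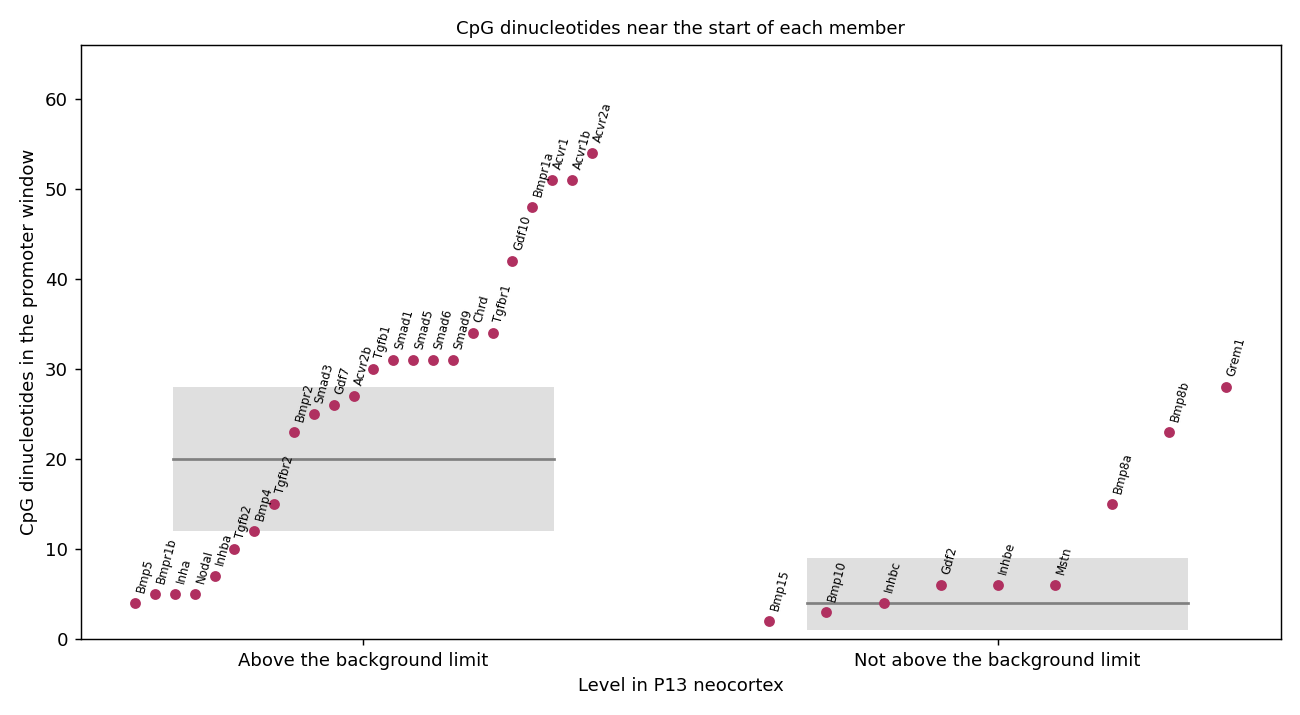
Number of CG dinucleotides in the promoter window (y axis) of each of 33 members (points), split by level in P13 neocortex, with the median and quartiles over all genes of the same level class (grey line and band). Smads and receptors lie mostly above the median of 20, and the ligands above the limit lie on both sides of it.

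Other family members also stood next to each other on the chromosomes. Inhbe and Inhbc on chromosome 10 were neighbours with no protein-coding gene between them, and neither was above the limit on every array. Acvrl1 and Acvr1b on chromosome 15 and Smad3 and Smad6 on chromosome 9 were neighbours of the same kind, and all of these were above it. In the pair of Gdf10 and Gdf2, Gdf10 was above the limit and Gdf2 could not be told apart from it (limma adjusted p = 0.463).

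Genes of the pathway outside the family were read from the same fits. Of 57 measured, 51 were above the limit, beside 74.0% of all singly named genes, the chemosensory receptors included. Of the 57, limma called 50 above and 4 below it. All 10 genes listed as targets of BMP signalling were above it, Atoh8 (6.92 ± 0.05) so close that limma could not tell it apart. Id1, Id2, Id3 and Id4, inhibitors of helix-loop-helix factors that BMPs induce in many cells, were at 8.64 ± 0.23, 11.90 ± 0.33, 9.61 ± 0.55 and 10.56 ± 0.01. Of 8 TGF-beta targets 7 were above it, with Tgfbi at 8.20 ± 0.07, Skil, a repressor of Smads, at 10.55 ± 0.06 and Pmepa1, an inhibitor of the pathway, at 11.15 ± 0.16. Ltbp2 (5.87 ± 0.12) was below. Of 14 other antagonists 11 were above it, among them Fstl1 (10.86 ± 0.15), Fstl4 (8.77 ± 0.27) and Fstl5 (9.61 ± 0.13), with Fstl3, which binds activin, closer to it (7.24 ± 0.24). Cer1 (5.24 ± 0.30) and Lefty1 (6.48 ± 0.25), antagonists of the early embryo, were not, nor was Sost (6.996 ± 0.41), known from bone. Co-receptors and genes of latent TGF-beta were above it in 10 of 11 cases. Among them were Eng, an endothelial co-receptor, at 10.47 ± 0.20, the BMP co-receptors Rgma and Rgmb at 10.71 ± 0.11 and 10.15 ± 0.05, and Neo1, a receptor of the RGM proteins, at 11.50 ± 0.08. Tdgf1 (5.95 ± 0.08), the Nodal co-receptor, was below. Of 14 intracellular regulators 13 were above it, with the ubiquitin ligases Smurf1 and Smurf2 at 10.12 ± 0.07 and 9.72 ± 0.04, the co-repressor Ski at 10.59 ± 0.12 and Zfyve16 at 8.19 ± 0.15. Runx1 (6.10 ± 0.57), a transcription factor of blood formation, was below. Whether BMP or TGF-beta signalling set the levels of the genes listed as targets was not tested.

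No member was called as more variable between the mice than other genes of its level. With limma's robust fit of how variances are distributed, run over 13649 probe sets above the limit, 0 of the 36 members passed at a Benjamini-Hochberg adjusted p under 0.05, where 0.0659% of all did. At an unadjusted p under 0.05 there were also 0, where 5.27% of all were, and 0 passed without robust fitting. Of 13649 simulated probe sets, 100 had the SD raised 4 times and 100 had it raised 8 times. This test recovered 46% of the former and 78% of the latter. An SD raised 4 times was thus missed more often than found. Of 13449 unchanged probe sets 8 were called, and the data were drawn from the fitted variance model. The median SD of the members was 0.13, against 0.16 for all genes above the limit, and 22 of 36 were under that value while the other 14 were over it. The member with the widest spread was Chrd, with a 1.81-fold difference between mice 1 and 3 (unadjusted p = 0.0572, limma adjusted p = 0.951). Bmp7 differed by 1.42-fold (limma adjusted p = 0.977) and Tgfbr3 by 1.40-fold (0.987). Below the limit the spread on the log2 scale was wider, up to 4.88-fold in Bmp10. With no filter on dim probe sets, Bmp10 had an unadjusted p of 0.00157 and a limma adjusted p of 0.400.

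**Figure D4:**
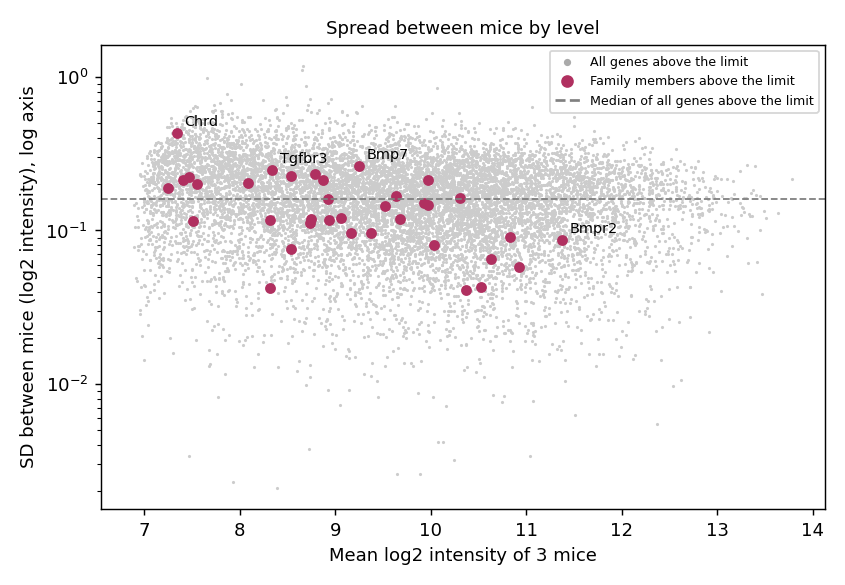
SD between the 3 mice in log2 intensity (y axis, log scale) against mean log2 intensity (x axis) for all genes above the limit (grey) and the 36 family members above it (red), with the median SD of all such genes as a dashed line. The members lie within the cloud of other genes, with Chrd at 0.43 the widest of them.

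Of the 51 pathway genes above the limit 0 passed the same test and 5 had an unadjusted p under 0.05, where 5.27% of all probe sets tested did. Id3 had the lowest, at 9.62, 10.16 and 9.06 in mice 1 to 3, a 2.14-fold difference (unadjusted p = 0.0016, limma adjusted p = 0.406). Without mouse 1, its middle value, it passed (limma adjusted p = 0.000795), in a fit that called 27 probe sets instead of 9. It did not pass without mouse 2 (limma adjusted p = 0.994), after quantile normalization (0.974) or after median centring (0.918). The others were Id2 at 11.53, 12.17 and 12.01, Tgif1, a repressor of Smads, at 8.87, 9.61 and 9.04, and the BMP antagonists Sostdc1 at 9.06, 9.86 and 9.75 and Nbl1 at 8.91, 9.62 and 9.24. All 5 were highest in mouse 2 as deposited, but Sostdc1 was highest in mouse 3 after quantile normalization and after median centring. The 10 meningeal and fibroblast markers were all highest in mouse 2 as deposited, 9 of them after quantile normalization and 8 after median centring, where 59.8%, 32.2% and 31.5% of all genes were, with a deposited summed intensity of 14454, 21785 and 17120 in mice 1 to 3. Other lists differed as deposited. Mouse 2 was highest for 5 of 6 microglial markers (summed intensity 5126, 6451 and 5806), 5 of 7 neuronal markers and both muscle markers above the limit. It was highest for 3 of 5 mural, 3 of 5 choroid plexus, 2 of 4 oligodendrocyte precursor and 2 of 6 endothelial markers. None of 4 astrocyte and 4 myelin markers was highest there, and 3 and 4 of these were highest in mouse 3. The part of any of these cell types in the values of Bmp7, Id2, Id3, Tgif1, Sostdc1 and Nbl1 was not tested.

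The order of the mice was read against that of all genes, since the arrays differ in brightness. As deposited, the member count lowest in mouse 1 was 15 of 36, where 53.8% of all genes above the limit were lowest there. It was 3 in mouse 2 (11.5% of all genes) and 18 in mouse 3 (34.6%). Mouse 1 was highest for 14 members (25.1%), mouse 2 for 19 (59.8%) and mouse 3 for 3 (15.1%). The members' median deviation from the mean of the mice was 0.01, 0.07 and -0.06 in mice 1 to 3, and that of all genes -0.07, 0.10 and -0.02. The counts changed with the scaling. After quantile normalization 12, 13 and 11 members were lowest in mice 1 to 3 (41.3%, 31.1% and 27.8% of all genes), and 20, 8 and 8 were highest (40.1%, 32.2% and 27.9%). With each array centred on its median 16, 9 and 11 were lowest (59.4%, 24.4% and 16.2%), and 15, 8 and 13 were highest (23.0%, 31.5% and 45.5%).

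A pair of orders, noticed after the values were seen, was present under all 3 scalings. Bmpr2, Acvr2a, Acvr2b and Tgfbr2, the type II receptors, were highest in mouse 1 as deposited, after quantile normalization and after median centring, where 25.1%, 40.1% and 23.0% of all genes were. Their differences were small, from 1.09-fold in Acvr2a to 1.30-fold in Acvr2b, and none passed the variance test. Chrd, Nog and Fst were lowest in mouse 3 under the same scalings, where 34.6%, 27.8% and 16.2% of all genes were. These antagonists lay under 1 log2 unit above the limit, and genes as dim were not compared alone. As deposited the limit was also lowest in mouse 3, though not after quantile normalization or median centring. The limit was highest in mouse 1 as deposited and after median centring, though not after quantile normalization. Of the type II receptors Acvr2b was dim as well, at 0.42 above the limit, so its order under those scalings was that of the background too. Other members highest in mouse 1 as deposited were Bmp5, Gdf7, Tgfb2, Tgfb3, Bmp1, Acvr1, Acvrl1, Smad3, Smad7 and Chrd. Of the 10 co-receptor and latency genes above the limit 7 were too, namely Eng, Rgma, Rgmb, Neo1, Ltbp1, Ltbp3 and Itgav. Of the 6 endothelial markers, 4 were highest in mouse 1 as deposited, 5 after quantile normalization and 4 after median centring, and their summed intensity was 4125, 3631 and 3321 in mice 1 to 3. As deposited the other 2 endothelial markers, Cldn5 and Slco1a4, were highest in mouse 2. Mouse 1 was also highest for 2 of 4 oligodendrocyte precursor, 1 of 5 mural and 1 of 4 astrocyte markers. It was highest for none of the neuronal, myelin, microglial, or meningeal and fibroblast markers. The part of any of these cell types in the values of these receptors was not tested.

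**Figure D5:**
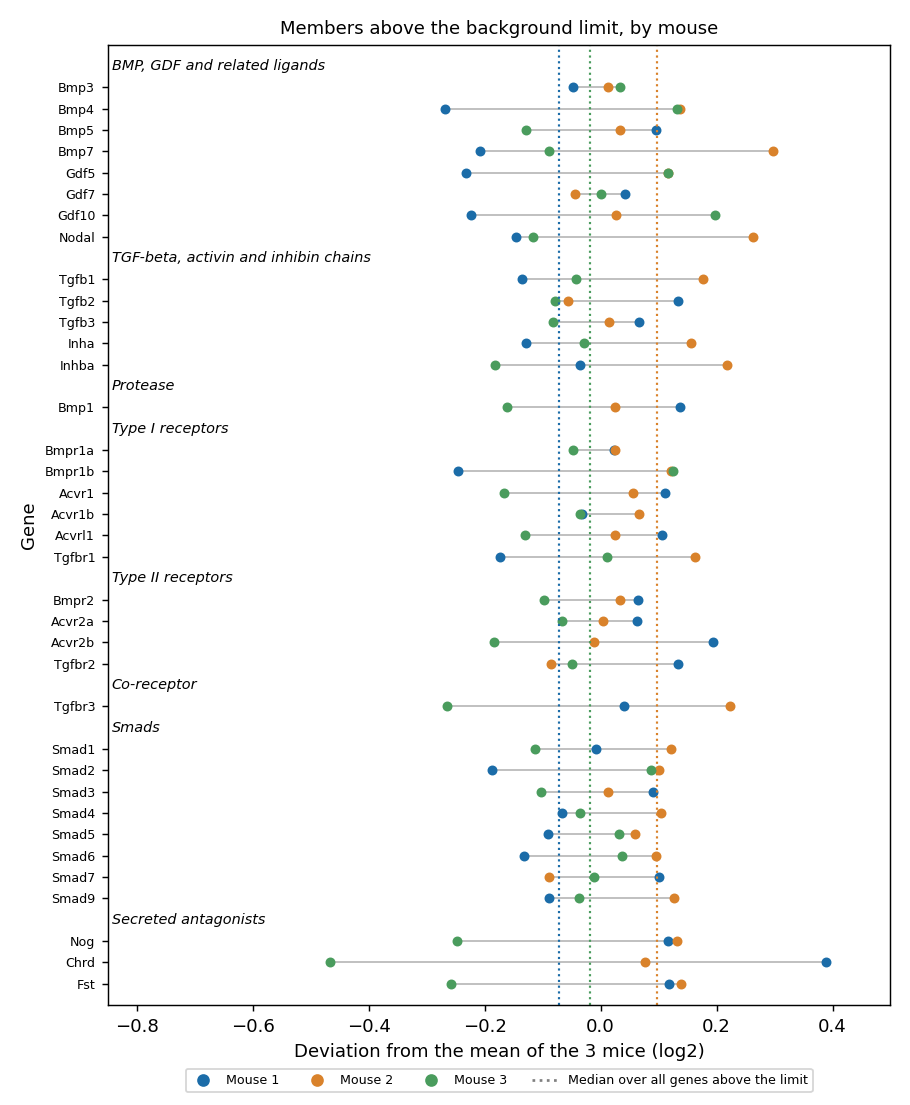
Deviation of each mouse (points) from the mean of the 3 mice in log2 intensity (x axis) for the 36 members above the limit (rows, by role), with the median deviation of all genes above the limit as dotted lines. The 4 type II receptors have mouse 1 to the right, and Nog, Chrd and Fst have mouse 3 to the left.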

How the data were processed

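Total RNA of 3 neocortices was extracted with Trizol and labelled with biotin by the Affymetrix sense target assay, per the labels' protocols. The authors deposited an intensity per probe set, linear in scale. The submitters' processing notes list Affymetrix Power Tools and build mm8. The normalization is not given in the sources used here. Median intensities were 248.1, 256.6 and 230.6. Log2 of the deposited intensity was taken with no pseudocount. Names came from the platform annotation, which gave 14938 probe sets 1 symbol, 989 several and 7245 none. All 49 members matched a RefSeq gene of assembly GRCm38 by Entrez ID, and no coordinates of the arrays are given since their build differs. A gene with several probe sets was represented by its brightest on average. limma 3.58.1 in R 4.3.3 tested distance from the limit (intercept model, trend and robust prior, limit taken as fixed) and excess variance (fitFDistRobustly). The distance test was run on 23172 simulated probe sets. Of 100 set 0.5 above the limit 79% were recovered, and of 100 set at it 4% were called. Members and lists were chosen with earlier results of these data known. Every member is named, with the first 4 measured genes of each pathway list and any called in the variance test. Named beyond that rule, after their values were seen, were Tgif1, Sostdc1, Nbl1, Atoh8, Runx1, Cer1, Lefty1, Sost, Tdgf1, Ltbp1, Ltbp3 and Itgav. Alternatives were other scalings, limits and priors and leaving out each mouse.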

Additional observations from a re-analysis of the deposited data

Results flagged for a closer look

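A probe set whose annotation names both Cers1, a ceramide synthase, and the ligand gene Gdf1 was set aside because the family rule takes only probe sets with 1 symbol. In the mouse these genes are known to share a transcript. The probe set was above the background limit on every array, at 11.43, 11.73 and 11.56 in mice 1 to 3 (mean 11.58, SD 0.15), which is 4.75 above the limit (limma adjusted p = 5.16e-13). The signal cannot be assigned to either gene. With 3 arrays in 1 group, no array was tested for standing apart from the others.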

How the results depend on the processing

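No paired analysis was possible because the arrays form 1 group. The number of members above the limit was between 29 and 38 over the settings tried. Those called below it, 9 as reported, were 4 with the limit at the 90th percentile of the receptor probe sets and 18 with it at the 99th. With the 99th percentile as limit, Bmp5 (-0.36), Gdf5 (-0.31), Acvr2b (-0.62), Nog (-0.46), Chrd (-0.53) and Fst (-0.40) fell below it and Inhba (0.22) was no longer above it on every array, so the place of these 7 depends on the limit. With the 90th, Bmp2 (0.15), Bmp8b (0.031), Bmp10 (0.037), Bmp15 (0.13), Gdf2 (0.41), Gdf9 (0.12) and Inhbe (0.52) lay above it, of which Gdf2 and Inhbe passed (limma adjusted p = 0.0265 and 0.00423). On leaving out a mouse, Bmp10 ranged from -1.004 to 0.13 and Inhbe from -0.11 to 0.079, both above it without mouse 3. Calls below the limit were lost with the sign kept by Bmp2 (quantile normalization, no robust fitting, each mouse left out), Bmp15 (no robust fitting, without mouse 2 or 3) and Bmp8b (without mouse 3), and at the 90th percentile by Inhbc and Grem1. The members called below were 7 without robust fitting and 7 to 8 on leaving out a mouse. Bmp10 was called below after quantile normalization and without mouse 2. In all, a call below the limit was gained by 2 members after quantile normalization. It was gained by 1 with 16 added to each value before log2, by 1 without mouse 2 and by 1 without mouse 3. A limit from 966 receptor probe sets, chosen after seeing the data, changed 1 call, that of Gdf9. The excess variance test called 0 members in every setting. An unadjusted p under 0.05 was reached by 1 member with no filter on dim probe sets, Bmp10, and by 1 without mouse 2, Chrd (lowest 0 and highest 1 on leaving out a mouse). Its 9 calls over all probe sets became 2 after quantile normalization, 5 after median centring, 4 at the 99th percentile limit, 22 for probe sets above the limit on at least 2 arrays and 18 with no filter, and from 9 to 27 on leaving out a mouse. Of pathway genes it called between 0 and 1 on leaving out a mouse. After quantile normalization and after median centring, 8 members were highest in mouse 2 and 11 lowest in mouse 3. On leaving out a mouse the members highest in mouse 2 were 22 to 30 and those lowest in mouse 3 were 21 to 30, since only a pair of arrays was then ordered. The cause of these changes was not tested. The dim ligands and antagonists are limited by their small signal over background.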
